A study of Danio rerio with 6 samples.

Results

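The genes that copy DNA in S phase and divide the chromosomes in mitosis were followed in whole thymus of zebrafish with intact *foxn1* alleles (*foxn1*+/+) and with mutant alleles (*foxn1*-/-). The members were given as a list of genes by name, drawn up with earlier results of these data known: 42 symbols, 24 of S phase and 18 of G2 and mitosis (G2/M). They were found by symbol in the count table and correspond to 43 of its 32520 Ensembl gene identifiers, because the name table gives the symbol of *mcm6* to 2 identifiers. The symbol of *birc5a* was found only under the name without its last letter. The mutant line carries an internal deletion of *foxn1*, the gene of the transcription factor that matures thymic epithelium. Fish of both genotypes were adults aged 3 months, and the labels name no treatment. Each library holds the pooled RNA of 3 fish and 3 libraries were made per genotype, so that the spread between libraries is a spread between pools, in which single fish, their sex and their litter cannot be seen.

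A dividing cell first licenses its origins of replication by loading the Mcm helicase with Cdc6 and Cdt1. Cyclin E with Cdk2 and the binding of Cdc45 and the GINS complex then start the helicase, and DNA polymerases follow on the sliding clamp Pcna. Entry into mitosis is driven by Cdk1 with cyclins A and B, and Aurora and Polo kinases, the kinetochore, the spindle checkpoint and kinesin motors divide the chromosomes. In the thymus, most division takes place in immature T cells (thymocytes). These cells also rearrange and test their antigen receptors, and they depend on signals from thymic epithelium.

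The libraries held 41685232, 31989159 and 33460074 counts for the wild types and 40960276, 42060705 and 42198532 counts for the mutants. Counts were scaled to a common library total (CPM) with the TMM factors of edgeR, and 3 counts then correspond to between 0.0623 and 0.0874 CPM. The targeted gene, *foxn1*, was read at 495, 375 and 349 counts in the wild types and at 114, 129 and 66 counts in the mutants. The tissue label was checked against thymocyte markers, and *rag1*, which cuts antigen receptor genes, had 252186, 157100 and 226328 counts in the wild types. In the mutants, *rag1* had 11126, 11697 and 3375 counts, and *psmb11a*, the thymus-specific proteasome subunit of cortical epithelium, had 0 counts in each library. Both marker genes were thus lower in every mutant library. All 15 tested identifiers each of contractile muscle and of connective tissue were higher, beside 36.2% of all genes tested. With library size alone, 14 of 15 were higher for connective tissue. In bulk tissue, fewer cells of a type and less RNA per cell cannot be told apart.

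All 43 identifiers passed the filter on low counts, and all 43 were lower in the mutants by edgeR's quasi-likelihood test, with an adjusted p under 0.05 over the 23805 genes tested. None was higher. Of all genes tested, 35.9% were called lower and 36.2% higher, and their median change was 0.02 on the log2 scale. Of the calls, 49.8% were lower, and 61.6% with scaling by library size alone. For each of the 43, every mutant library lay below every wild-type library in CPM, which was the case for 39.3% of all genes tested. The S phase members had a median log2 fold change of -2.32, or 20% of the wild-type level. The G2/M members had one of -3.72, or 7.61% of the wild-type level. An estimated fall of more than 4-fold was found in 17 of 25 S phase identifiers and 18 of 18 G2/M members, each called lower. Of all genes tested, 9.68% met both conditions. The same held above 8-fold for 1 of 25 S phase identifiers, *ccne2*, and 17 of 18 G2/M members, all but *kif23*. It held above 8-fold for 5.16% of all genes tested. No test against a 4-fold or 8-fold change was run.

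**Figure D1:**
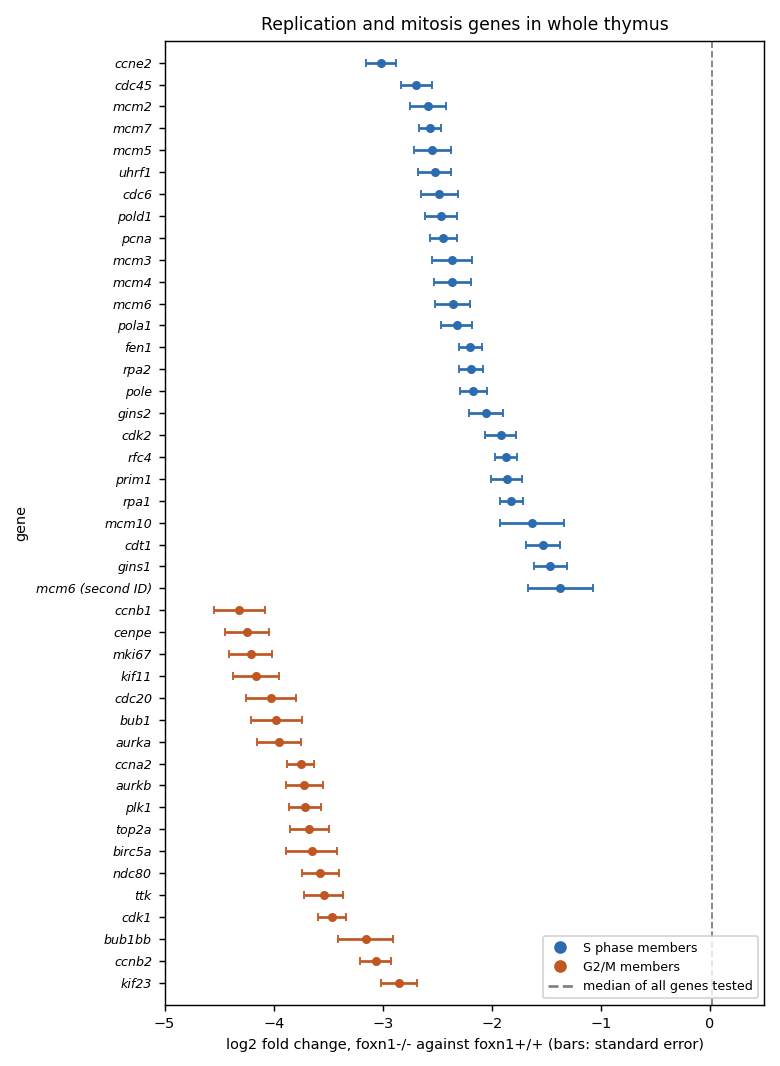
Log2 fold change of each member in *foxn1*-/- against *foxn1*+/+ thymus, with bars for the standard error derived from edgeR's test statistic, S phase members in blue and G2/M members in orange, and a dashed line at the median of all genes tested. S phase values lie between -3.02 and -1.37 and G2/M values between -4.32 and -2.85, and the ranges overlap only between *ccne2* and *kif23*.

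All 9 identifiers of origin licensing genes were lower in the mutants, beside 35.9% of all genes tested. Mcm2 to Mcm7 form the ring of the replicative helicase, and their main identifiers fell within a narrow range, from 2.36 to 2.58 on the log2 scale. The subunit with the largest fall, *mcm2*, had 24702, 20668 and 22157 counts in the wild types and 3491, 2723 and 3784 counts in the mutants. Its level was 550.9 ± 39.0 CPM in the wild types and 92.05 ± 16.27 CPM in the mutants (SD, n = 3 each; log2 fold change -2.58, SE 0.165, adjusted p = 3.66e-05, edgeR quasi-likelihood test). The lowest wild-type library was thus 5.04 times the highest mutant library. The other subunits kept close to this, with log2 fold changes of -2.37 for *mcm3*, -2.36 for *mcm4*, -2.54 for *mcm5*, -2.36 for the main *mcm6* identifier (ENSDARG00000057683) and -2.57 for *mcm7*. The helicase loaders stood further apart from each other: *cdc6* fell by 2.48 on the log2 scale, whereas *cdt1* fell by 1.53 (SE 0.156, adjusted p = 0.00016, edgeR). Counts of *cdt1* were 826, 676 and 656 in the wild types and 214, 184 and 263 in the mutants, so that about 34.6% of the wild-type level was kept. Relative to *gmnn*, the inhibitor of Cdt1, the groups of *cdt1* overlapped, with 1.54, 1.74 and 1.74 counts per count of *gmnn* in the wild types and 1.84, 1.35 and 2.07 in the mutants. This pair and the other pairs set in ratio below were chosen after their values were seen, and no ratio was tested.

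The second identifier listed under the symbol of *mcm6* (ENSDARG00000033231) was near the limit of detection. It had 26, 22 and 20 counts in the wild types and 8, 7 and 8 counts in the mutants, against 15680, 12982 and 14014 and then 2627, 2015 and 2716 for the main identifier. Its log2 fold change, -1.37, was the smallest of all members and had the largest standard error among the S phase identifiers (0.298, adjusted p = 0.00476, edgeR). How reads shared by similar genes were counted is not given in the sources used here, so the split between these identifiers is uncertain.

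Helicase activation was the S phase role with the smallest median fall (log2 fold change -1.84 over 4 genes), and its members differed widely. *cdc45*, the helicase cofactor, had 900, 792 and 894 counts in the wild types and 111, 116 and 130 counts in the mutants (21.19 ± 2.58 against 3.277 ± 0.181 CPM, SD, n = 3 each; log2 fold change -2.69, SE 0.145, adjusted p = 2.59e-05, edgeR). *gins1*, a subunit of the GINS complex that binds beside it, had 543, 489 and 464 counts in the wild types and 143, 152 and 188 counts in the mutants (12.21 ± 0.865 against 4.428 ± 0.520 CPM; log2 fold change -1.46, SE 0.148, adjusted p = 0.000156, edgeR). Partners of 1 complex therefore kept different shares of their wild-type levels, 15.5% for *cdc45* and 36.3% for *gins1*. The remaining GINS subunits fell more than *gins1*. The log2 fold change was -2.05 for *gins2*, and -2.94 and -2.89 for *gins3* and *gins4*, which are not among the 42 and were picked after their values were seen. The count of *gins3* per count of *gins1* was 1.21, 0.798 and 1.01 in the wild types and 0.301, 0.447 and 0.33 in the mutants, with no overlap. *mcm10*, which helps the helicase to fire, was low and the least separated member, with 167, 116 and 121 counts against 26, 33 and 56 (log2 fold change -1.63, SE 0.295, adjusted p = 0.00205, edgeR), and its lowest wild-type level was 2.06 times its highest mutant level.

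All 7 genes of the DNA synthesis machinery were lower, beside 35.9% of all genes tested. *pcna*, the sliding clamp and the S phase member with the most counts (not corrected for gene length), had 31058, 25276 and 22345 counts in the wild types and 4235, 3940 and 4556 counts in the mutants. Its level went from 637.4 ± 38.2 CPM to 117.1 ± 9.61 CPM (SD, n = 3 each; log2 fold change -2.44, SE 0.123, adjusted p = 2.31e-05, edgeR), with a gap between the groups far above the spread within each. Of the polymerases, *pold1* (lagging strand) fell most, with 6743, 5285 and 6251 counts in the wild types and 1042, 854 and 1031 counts in the mutants (149.0 ± 15.3 against 26.97 ± 3.73 CPM; log2 fold change -2.47, SE 0.145, adjusted p = 3.11e-05, edgeR). The smallest fall belonged to *prim1*, the primase subunit that starts each new strand, at 964, 641 and 647 counts against 186, 167 and 187 (18.10 ± 1.67 against 4.971 ± 0.464 CPM; log2 fold change -1.86, SE 0.139, adjusted p = 5.48e-05, edgeR). Between these stood *pola1*, the polymerase that extends the primers (-2.32), *fen1*, the flap nuclease of Okazaki fragments (to 21.8% of the wild-type level), *pole*, the leading strand polymerase (-2.17), and *rfc4*, of the clamp loader (-1.87).

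Replication protein A coats single-stranded DNA, and its subunits also kept different shares. *rpa1*, the large subunit, had 10723, 8433 and 9201 counts in the wild types and 2329, 2259 and 2510 counts in the mutants (230.7 ± 12.8 against 65.25 ± 3.89 CPM; log2 fold change -1.82, SE 0.106, adjusted p = 3.03e-05, edgeR). *rpa2* had 4897, 4146 and 4346 counts against 790, 847 and 977 (109.2 ± 7.14 against 23.98 ± 1.86 CPM; log2 fold change -2.19, SE 0.111, adjusted p = 2.33e-05, edgeR). Counts of *rpa2* per count of *rpa1* were 0.457, 0.492 and 0.472 in the wild types and 0.339, 0.375 and 0.389 in the mutants, a modest difference without overlap.

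The kinase that starts S phase was likewise split between its subunits. *ccne2*, a cyclin E, had 942, 678 and 787 counts in the wild types and 76, 97 and 90 counts in the mutants (19.52 ± 1.49 against 2.410 ± 0.198 CPM; log2 fold change -3.02, SE 0.140, adjusted p = 2.22e-05, edgeR). Its kinase partner *cdk2* had 2189, 1832 and 2271 counts against 484, 465 and 534 (51.56 ± 7.96 against 13.63 ± 0.972 CPM; log2 fold change -1.92, SE 0.142, adjusted p = 5.38e-05, edgeR). *ccne2* was thus left at 12.3% of its wild-type level, the lowest among the S phase members, and *cdk2* at 26.4%. The other cyclin E, *ccne1*, picked after its values were seen, was lower by less, with 421, 309 and 464 counts against 242, 237 and 270 (log2 fold change -0.51, SE 0.189, adjusted p = 0.0442, edgeR). With library size alone, the log2 fold change of *ccne1* was -0.91 (adjusted p = 0.00295, edgeR). The count of *ccne2* per count of *ccne1* was 2.24, 2.19 and 1.7 in the wild types and 0.314, 0.409 and 0.333 in the mutants, with no overlap between the genotypes. *uhrf1*, which brings the maintenance methyltransferase to newly copied DNA, had 5605, 4334 and 5438 counts against 783, 697 and 895 (125.5 ± 16.9 against 21.83 ± 2.72 CPM; log2 fold change -2.52, SE 0.151, adjusted p = 3.14e-05, edgeR).

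**Figure D2:**
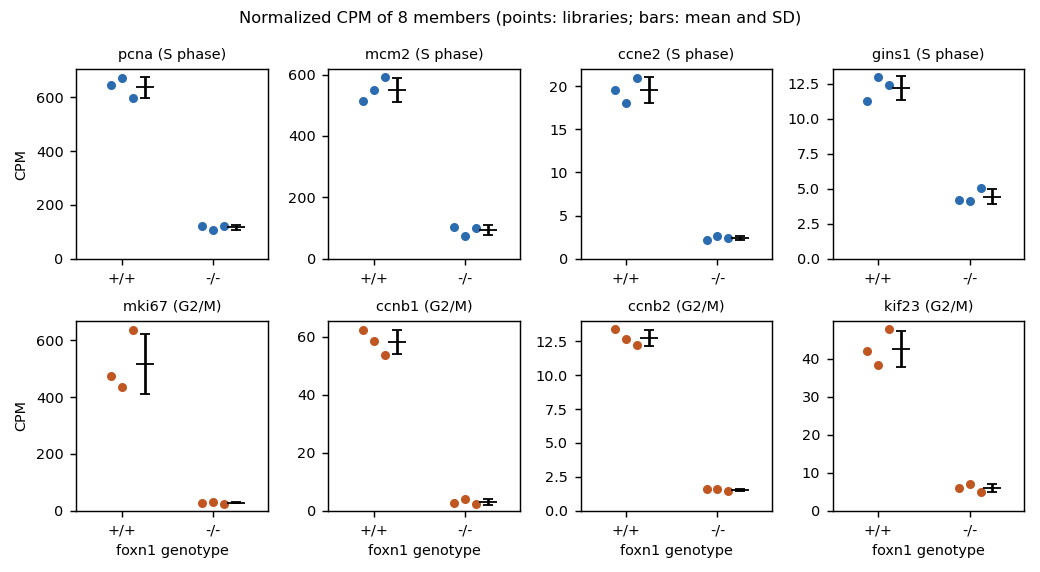
TMM-normalized CPM (y axes from 0) of 4 S phase members (blue) and 4 G2/M members (orange) in each library of the 2 *foxn1* genotypes, with the mean and SD of 3 libraries beside the points. The groups are apart in every panel, and the mutant mean is 36.3% of the wild-type mean for *gins1* and 5.02% for *ccnb1*.

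The cyclins and the kinase of mitotic entry had a median log2 fold change of -3.61. *ccnb1*, the main mitotic cyclin B of vertebrate cells, had 2989, 2204 and 2014 counts in the wild types and 91, 146 and 81 counts in the mutants. It showed the largest fall of all members, from 58.10 ± 4.20 to 2.915 ± 0.911 CPM (SD, n = 3 each; log2 fold change -4.32, SE 0.234, adjusted p = 2.65e-05, edgeR). Its relative *ccnb2* had 645, 478 and 459 counts against 54, 58 and 54 (12.78 ± 0.582 against 1.526 ± 0.0715 CPM; log2 fold change -3.06, SE 0.143, adjusted p = 2.22e-05, edgeR). Counts of *ccnb1* per count of *ccnb2* were 4.63, 4.61 and 4.39 in the wild types and 1.69, 2.52 and 1.5 in the mutants. These cyclins had the largest and the smallest fall of this group, so a shifted ratio follows from the choice of the pair. *ccna2*, the cyclin A of late S phase and G2, fell by 3.75 on the log2 scale, and *cdk1*, the kinase of mitotic entry, fell by 3.46. Counts of *cdk1* per count of *cdk2* were 2.8, 2.46 and 2.13 in the wild types and 0.719, 1.02 and 0.779 in the mutants.

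The mitotic kinases and the chromosomal passenger complex lay within a narrow band. *aurka*, the Aurora kinase of the spindle poles, had 1561, 1055 and 1092 counts in the wild types and 49, 87 and 75 counts in the mutants (29.85 ± 2.29 against 1.925 ± 0.462 CPM; log2 fold change -3.95, SE 0.202, adjusted p = 2.35e-05, edgeR). The smallest fall of the group, that of the passenger subunit survivin (*birc5a*), was hardly smaller, with 1640, 1288 and 1050 counts against 66, 86 and 127 (32.09 ± 3.54 against 2.544 ± 0.763 CPM; log2 fold change -3.65, SE 0.232, adjusted p = 3.62e-05, edgeR). *aurkb*, the kinase of the same complex, and *plk1*, the Polo kinase, had log2 fold changes of -3.72 each.

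For the spindle checkpoint and the kinetochore, the median log2 fold change was -3.77 over 6 genes. *cenpe*, a kinetochore motor that aligns chromosomes, had 2088, 1309 and 1809 counts in the wild types and 88, 87 and 66 counts in the mutants (42.12 ± 6.83 against 2.223 ± 0.413 CPM; log2 fold change -4.24, SE 0.204, adjusted p = 2.22e-05, edgeR). *bub1bb*, the checkpoint protein BubR1, had 502, 386 and 359 counts against 34, 58 and 31 (10.08 ± 0.449 against 1.127 ± 0.385 CPM; log2 fold change -3.16, SE 0.255, adjusted p = 7.02e-05, edgeR), the smallest fall here and the largest standard error among the G2/M members. Between them were *cdc20*, the activator of the anaphase-promoting complex (-4.02), the checkpoint kinases *bub1* (-3.97) and *ttk* (-3.54), and *ndc80*, which couples kinetochores to microtubules (-3.57).

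The kinesin motors of the spindle differed from each other. *kif11*, which pushes the spindle poles apart, had 6568, 4475 and 5656 counts in the wild types and 210, 362 and 255 counts in the mutants (135.4 ± 16.0 against 7.559 ± 1.92 CPM; log2 fold change -4.16, SE 0.214, adjusted p = 2.35e-05, edgeR). *kif23*, a motor of the central spindle and of cytokinesis, had 2021, 1440 and 1787 counts against 203, 257 and 184 (42.62 ± 4.75 against 5.917 ± 0.998 CPM; log2 fold change -2.85, SE 0.166, adjusted p = 3.09e-05, edgeR). That was the smallest fall of any G2/M member, and counts of *kif11* per count of *kif23* went from 3.25, 3.11 and 3.17 in the wild types to 1.03, 1.41 and 1.39 in the mutants.

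Among proteins of mitotic chromosomes, *mki67*, the Ki-67 antigen used as a stain for dividing cells, was the G2/M member with the most counts (not corrected for gene length). It had 22928, 16397 and 23890 counts in the wild types and 966, 1140 and 925 counts in the mutants (516.2 ± 106.7 against 27.85 ± 2.98 CPM; log2 fold change -4.21, SE 0.195, adjusted p = 2.22e-05, edgeR). Its lowest wild-type library was 14.2 times its highest mutant library, the widest gap of all members. *top2a*, the topoisomerase that untangles sister chromatids, had 9101, 6256 and 7063 counts against 412, 661 and 480 (181.2 ± 13.0 against 14.21 ± 3.13 CPM; log2 fold change -3.67, SE 0.182, adjusted p = 2.3e-05, edgeR). The common proliferation markers thus gave different sizes of change, since *mki67* was left at 5.39% and *pcna* at 18.4% of the wild-type level.

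The fall was larger for the G2/M than for the S phase members in every mutant library. Summed over the S phase members, the level was 3462, 3605 and 3833 CPM in the wild types and 759, 609 and 761 CPM in the mutants, or 19.5% of the wild-type mean. Summed over the G2/M members, it was 1710, 1570 and 1888 CPM in the wild types and 109, 140 and 110 CPM in the mutants, or 6.93%. The ratio of the S phase sum to the G2/M sum was 2.02, 2.3 and 2.03 in the wild types and 6.99, 4.34 and 6.94 in the mutants, so that the groups did not overlap. The difference between the phases was not tested, and these sums are led by genes with high counts such as *pcna* and *mki67*.

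**Figure D3:**
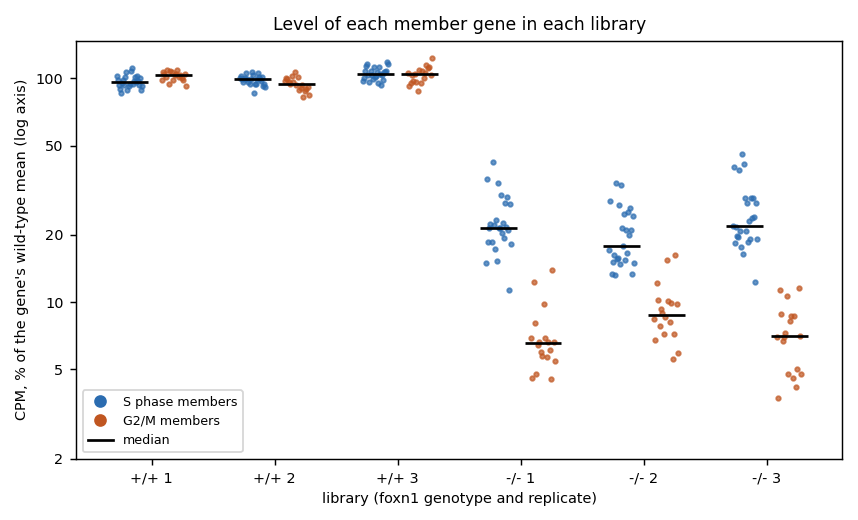
CPM of each member in each library as a percentage of the gene's wild-type mean (log axis), with S phase members in blue, G2/M members in orange and black bars at the medians. In the mutants the S phase medians are 21.5%, 17.8% and 21.8% and the G2/M medians are 6.54%, 8.73% and 7.04%.

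The mutant libraries did not share an order over the phases. Mutant library 2 had the lowest CPM of the mutants for 22 of 25 S phase identifiers and the highest for 15 of 18 G2/M members. With scaling by library size alone, it was lowest for 18 of 25 and highest for 16 of 18. Members of a phase share their libraries, so these are not independent counts. In the same library, the 10 most abundant genes took 30.0% of the counts, compared with 27.0% and 26.1% in mutant libraries 1 and 3 and 13.1% to 14.6% in the wild types. Its keratin-rich list of thymic epithelium summed to 5164 CPM, against 15929 and 17635 CPM in the other mutant libraries, whereas its contractile muscle list was the highest, at 172946 CPM against 153970 and 124214 CPM. The part of tissue composition in the order of the libraries was not tested.

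Further genes of both phases, from lists drawn up with earlier results of these data known, were also lower. Of 36 other replication genes tested, all 36 were lower, with a median log2 fold change of -2.07 (35.9% of all genes were lower). Of these 36, 20 were lower by more than 4-fold, beside 9.68% of all genes tested. The largest fall was that of *hells*, a chromatin remodeller that works with DNA methylation, at 17769, 13480 and 16046 counts against 1169, 1083 and 1310 (log2 fold change -3.55, SE 0.139, adjusted p = 1.85e-05, edgeR), and it was the one gene of this list past 8-fold. At the other end, after *ccne1*, stood *timeless*, of the fork protection complex, with a log2 fold change of -0.71. Of 49 other mitosis identifiers tested, all 49 were lower, with a median of -3.45. Of these 49, 33 were lower by more than 8-fold, beside 5.16% of all genes tested. Of the mitosis identifiers with a mean of at least 1 CPM over all libraries, *dlgap5*, a spindle assembly factor, fell most, with 4081, 2879 and 3219 counts against 156, 212 and 163 (log2 fold change -4.08, SE 0.147, adjusted p = 1.54e-05, edgeR). *cdc25d*, a Cdk-activating phosphatase by its name, was at or below the floor of 3 counts in each mutant library and at 116, 57 and 44 counts in the wild types, at least 20.5-fold lower. The smallest falls in this list belonged to *pkmyt1* (-0.89) and *wee1* (-1.20), kinases that hold Cdk1 inactive. *timeless*, *cdc25d*, *pkmyt1* and *wee1* were picked after their values were seen.

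Genes that govern the cycle from outside these machines were less uniform. Of 21 G1 cyclins, Cdk4/6 kinases and E2F, Myb and FoxM1 factors tested, 19 were lower, 0 were higher and 2 did not pass the test. Their median log2 fold change was -1.52, and of all genes tested 35.9% were lower. *e2f5*, of the repressor branch of the E2F family, fell most, with 744, 505 and 487 counts against 52, 53 and 38 (log2 fold change -3.40, SE 0.200, adjusted p = 3.11e-05, edgeR). *mybl2b* and *foxm1*, activators of G2/M genes in mammals, had log2 fold changes of -2.84 and -2.68, and *cdk6*, a G1 kinase, of -3.32. The exception was *ccnd1*, a cyclin D, with 1725, 1526 and 1309 counts against 1695, 1541 and 1623, for which the log2 fold change was 0.27 (SE 0.115, adjusted p = 0.0675, edgeR), or -0.14 with scaling by library size alone. A cyclin D2 identifier (ENSDARG00000070408) also missed the threshold (-0.42, adjusted p = 0.0851, edgeR; 0.00701 with library size alone), whereas the abundant one (ENSDARG00000051748) fell by 2.94 on the log2 scale. *mybl2b*, *foxm1*, *cdk6* and the cyclins D were picked after their values were seen.

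The brakes of the cycle did not share a direction. Of 24 Cdk inhibitors, pocket proteins and antiproliferative genes tested, 11 were lower, 9 were higher and 4 did not pass the test, near the shares of all genes tested (35.9% lower and 36.2% higher). With scaling by library size alone, 13 were lower, 8 were higher and 3 did not pass. *btg1*, an antiproliferative gene abundant in lymphocytes, fell from 121687, 61349 and 71867 counts to 20191, 21850 and 17437 (log2 fold change -1.89, SE 0.203, adjusted p = 0.000198, edgeR), the largest fall in the list at a mean of 1 CPM or more. An identifier under the growth arrest symbol GAS1 (ENSDARG00000067984) had 115, 214 and 133 counts against 1347, 1381 and 1391 and rose by 3.29 on the log2 scale (SE 0.306, adjusted p = 0.000127, edgeR). The Cdk inhibitor *cdkn1ca* rose from 102, 110 and 107 to 451, 414 and 349 counts (log2 fold change 2.09, SE 0.206, adjusted p = 0.000139, edgeR), and was picked after its values were seen. It was the only Cdk inhibitor called higher. The other called Cdk inhibitors were lower: the *cdkn1b* identifiers (-0.91 and -0.49), *cdkn2c* (-1.10) and *cdkn2d* (-2.08). *cdkn1a*, *cdkn1cb* and *cdkn2a/b* did not pass the test. All 10 histone and histone chaperone genes tested were lower, beside 35.9% of all genes tested, with a median log2 fold change of -1.94. The histones among these 10 genes were the variants H2A.Z and H3.3 (*h2az2a*, *h2az2b*, *h3f3a* and *h3f3b.1*). The list was drawn up without replicative histone genes, so their levels were not examined. In this list *slbp*, which binds the tail of replicative histone messages, fell most (-2.68, SE 0.119, adjusted p = 2.22e-05, edgeR). Most replicative histone messages lack a poly(A) tail and are not captured in libraries made from polyadenylated RNA.

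**Figure D4:**
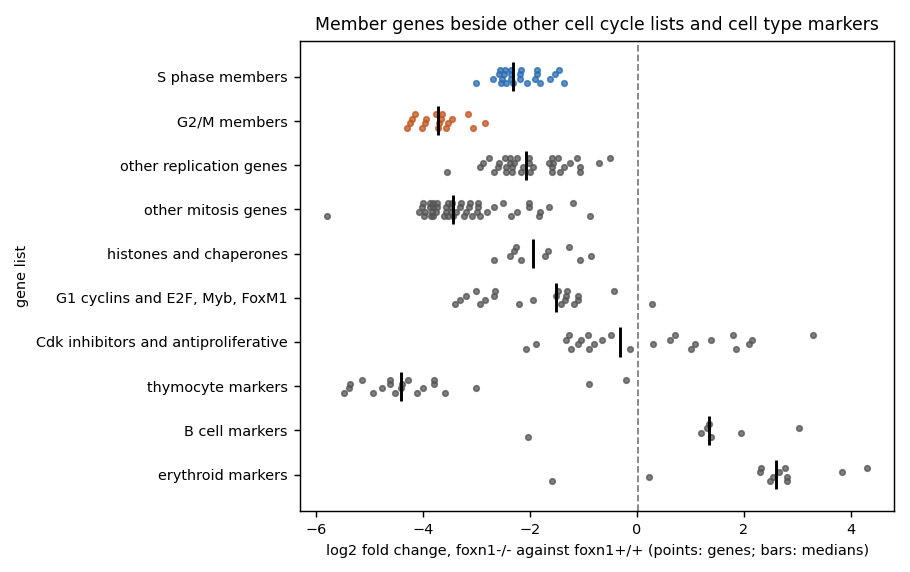
Log2 fold change in *foxn1*-/- against *foxn1*+/+ thymus of each gene (points) of the members, of 5 further cell cycle lists and of 3 blood cell marker lists, with a black bar at each median and a dashed line at the median of all genes tested. Medians run from -4.41 for thymocyte markers over -3.72 for the G2/M members and -2.32 for the S phase members to 2.60 for erythroid markers, and the point beyond -5 among other mitosis genes is *cdc25d*, whose fitted value rests on 0 to 3 counts in the mutants.

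Most thymocyte markers were also lower in the mutants, and their median fell further than those of the members. Of 20 markers tested, 19 were lower, beside 35.9% of all genes tested, and *cd247l* did not pass the test. The median log2 fold change was -4.41, and the largest fall was that of *themis*, a T cell signalling adaptor (-5.49, SE 0.369, adjusted p = 4.56e-05, edgeR). Their summed level was 14395, 11571 and 14723 CPM in the wild types and 951, 922 and 389 CPM in the mutants. This sum is led by *rag1*, at a mean of 5148 of 13563 CPM in the wild types and 243.1 of 754.0 CPM in the mutants. The median thymocyte marker was left at 4.69% of its wild-type level, below the median of the G2/M members and that of the S phase members. The G2/M sum per thymocyte sum was 0.119, 0.136 and 0.128 in the wild types and 0.114, 0.152 and 0.282 in the mutants, with overlapping groups. The S phase sum per thymocyte sum was 0.24, 0.312 and 0.26 in the wild types and 0.798, 0.66 and 1.96 in the mutants, without overlap. Mutant library 3 gave the highest value of both ratios and had the lowest thymocyte sum.

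**Figure D5:**
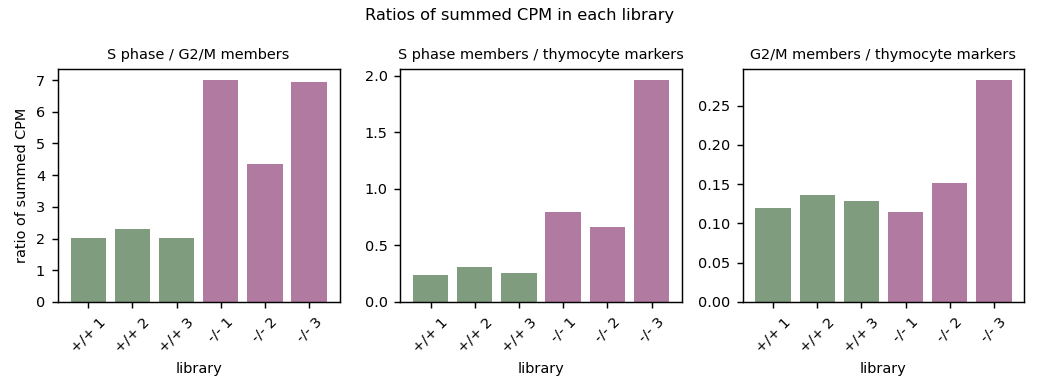
Ratios of summed CPM in each library (bars, from 0; *foxn1*+/+ in green and *foxn1*-/- in purple) for S phase over G2/M members, S phase members over thymocyte markers, and G2/M members over thymocyte markers. The first ratio is 2.02 to 2.3 in the wild types and 4.34 to 6.99 in the mutants, whereas the third is 0.119 to 0.136 in the wild types and 0.114 to 0.282 in the mutants.

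Markers of other cells that can divide or that carry RNA of dividing precursors were present beside the members. Of 7 B cell identifiers, 6 were higher and 1 was lower, beside 36.2% higher and 35.9% lower of all genes tested. The summed level of the B cell identifiers was 35.0 to 39.2 CPM in the wild types and 84.6, 98.4 and 52.8 CPM in the mutants. *ighm*, the heavy chain of IgM, rose by 3.03 on the log2 scale (SE 0.292, adjusted p = 0.000142, edgeR), and *blk*, a Src-family kinase of B cells that thymocytes can also express, fell by 2.04 (SE 0.228, adjusted p = 0.000233, edgeR). Of 12 erythroid identifiers, 10 were higher and 1 was lower, beside the same shares of all genes tested. The erythroid sum was 205 to 306 CPM in the wild types and 1033, 1109 and 2737 CPM in the mutants. An identifier under the symbol of the red cell anion exchanger *slc4a1a* (ENSDARG00000024560) rose by 4.31 on the log2 scale (SE 0.635, adjusted p = 0.000879, edgeR), and *hbaa2*, a globin, fell by 1.59 (SE 0.436, adjusted p = 0.0133, edgeR). Of 13 myeloid identifiers, 8 of which share the symbol of *mfap4*, 4 were lower, 3 were higher and 6 did not pass the test. Of all genes tested, 35.9% were lower and 36.2% higher. The *mfap4* identifiers went both ways, with the largest rise for ENSDARG00000038683, from 802, 653 and 492 to 2807, 2589 and 1881 counts (adjusted p = 0.000141, edgeR), and the largest fall at a mean of 1 CPM or more for ENSDARG00000090557, from 110, 78 and 69 to 25, 21 and 19 counts (log2 fold change -1.78, SE 0.257, adjusted p = 0.000727, edgeR). Of 11 thymic epithelial genes, 5 were lower and 5 were higher, beside the same shares of all genes, and with library size alone 5 were lower and 3 higher. The lower ones were *psmb11a*, *psmb11b* (4019, 2638 and 2407 against 1, 0 and 0 counts), *aire* (-5.69), *ccl25a* (-2.53) and *foxn1* (-1.79). The higher ones were *cxcl12a*, *dll4*, *krt5*, *krt8* and *cldn7b*. *krt5*, a basal keratin, had overlapping groups although its log2 fold change of 1.83 passed the test (SE 0.660, adjusted p = 0.0399, edgeR), as it did not with library size alone (adjusted p = 0.0897). The Notch ligand *dll4*, picked after its values were seen, had a log2 fold change of 0.51 (adjusted p = 0.0129, edgeR), or 0.10 with library size alone (adjusted p = 0.494). Germ cell and gonad genes summed to 2.55 to 5.32 CPM over all 6 libraries. Of 6 tested, 2 were lower, 1 was higher and 3 did not pass the test (35.9% lower and 36.2% higher of all genes). The median log2 fold change of these 6 genes was -0.82. The higher one was *gsdf*, a growth factor of the fish gonad, which rose by 1.88 on the log2 scale (SE 0.248, adjusted p = 0.00047, edgeR). The lower ones were *ddx4* (-2.30) and *sycp3* (-1.62), both at means below 1 CPM in each genotype. In muscle and connective tissue the largest rises were those of *pvalb2*, a calcium buffer of fast muscle, at 4.72 on the log2 scale (SE 0.950, adjusted p = 0.00364, edgeR), and of a fibronectin identifier (ENSDARG00000006526) at 2.84 (SE 0.333, adjusted p = 0.000318, edgeR). The part of any of these cells in the levels of the replication and mitosis genes was not tested.

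The spread within a genotype was largest for the G2/M members in the mutants. The median ratio of the highest to the lowest mutant library was 1.23 for the S phase and 1.48 for the G2/M members, compared with 1.14 and 1.16 in the wild types. The smallest count of any G2/M member in a library was 31, and apart from the second *mcm6* identifier no S phase member had fewer than 26 counts. At these depths the remaining expression of each member in the mutants was above the floor of 3 counts in all libraries.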

How the data were processed

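RNA of whole thymus was sequenced from 6 zebrafish pools, 3 *foxn1*+/+ and 3 *foxn1*-/-, and genotypes and replicate numbers were taken from the sample labels. The authors deposited raw, unnormalized counts for each Ensembl gene. Per the labels' processing notes, Trim Galore 0.4.3.1, HISAT2 2.1.0 and featureCounts 1.6.1.0 were used with build GRCz11. The annotation release, the strand setting and how reads with several alignments were counted are not given in the sources used here. The labels name a low-input kit and the Methods another kit of the same maker. Nothing says whether the pools came from separate clutches, so p-values measure the spread between pools.

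Of 32520 genes, the 23805 whose count exceeded 5 in 3 or more libraries were compared with the two-sided quasi-likelihood test of edgeR 4.0.16 (TMM, robust) in R 4.3.3. Benjamini-Hochberg adjustment ran over all genes tested, with a threshold of 0.05. Changes are on the log2 scale, mutant against wild type. Their standard errors (SE) were derived as the size of the log2 fold change divided by the square root of the test's F statistic. The Methods name voom and treat, which was run as an alternative. Further alternatives were DESeq2 1.42.0, its size factors in edgeR, library size alone, other filters, the replicate block, leaving out each library, and members whose symbol has a single identifier. The tests were tried on simulated data.

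Symbols came from a table that names 29201 identifiers. The members and lists were chosen with earlier results of these data known. Named with full values were, per role, the member with the largest and the smallest fall, the most abundant member per phase and any member not called, and, per further list, the called gene with the largest fall and rise at a mean of at least 1 CPM. Outside this rule, *cdt1* and *mcm10* were given full values after their values were seen. Pairs of genes set in ratio were also chosen after their values were seen, and are given without a test. Levels were not compared between genes per length, because no lengths were used. Floors (3 counts) cover counting error only. No library was a copy of another: within genotypes, chi-square per degree of freedom between libraries was 28.8 to 89.8, and correlations of log2 CPM were 0.974 to 0.986.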

Additional observations from a re-analysis of the deposited data

How the results depend on the processing

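All 43 identifiers were called lower in each alternative that tested them. With at least 10 counts in every library, 42 were tested and 42 were called, since the second *mcm6* identifier was removed, and 41 of 41 were called when *mcm6* was left out. None of the 558 values of single members under an alternative lost its call or changed direction, and the largest adjusted p among them was 0.0205, for the second *mcm6* identifier without mutant library 3. Scaling by library size alone moved the medians most, to -2.72 for the S phase and -4.12 for the G2/M members. It shifted the median of all genes to -0.39 on the log2 scale and made 61.6% of calls lower in place of 49.8%. Leaving out 1 library gave S phase medians from -2.41 to -2.15 and G2/M medians from -3.80 to -3.57, and the S phase value without mutant library 2 (-2.15) moved by more than 0.162, the SD over the mutant libraries of their median log2 ratio to the wild types. The G2/M median minus the S phase median was -1.40 on the log2 scale, and between -1.65 and -1.25 over the alternatives. Deviations of same-numbered libraries from their group means had correlations of 0.139, -0.117 and -0.0121. Those of differently numbered libraries ran from -0.139 to 0.157. With so few libraries, this cannot decide whether the numbers pair the samples. With the replicate block, all 43 were still called lower, with medians of -2.32 and -3.73, and 8071 genes were called lower in place of 8556. Depth limits the second *mcm6* identifier most, at 7 to 26 counts, and an exact permutation test of 3 against 3 could not give a p below 0.1 for a single gene.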
